A study of Mus musculus with 8 samples.

Results

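A set of distal binding sites was shared by 7 of 8 chromatin immunoprecipitation sequencing (ChIP-seq) libraries and had no peak in the remaining library. In ChIP-seq, DNA fragments bound to a protein are recovered with an antibody and sequenced, and a peak is a place where fragments pile up. Peaks of the 7 lists were merged wherever they overlapped, and a merged site was kept if all 7 lists had a peak in it, if no peak of the second FGFR1 experiment overlapped it, and if under 20 bp of it lay within 1000 bp of any transcript start in GENCODE M21. The rule kept 1374 of the 87843 merged sites of the 7 lists, and 89569 sites were obtained when all 8 lists were merged. The sites were thus selected on the presence and absence of peaks, so their presence in 7 lists, their absence from the eighth, and their strength in those lists are given as descriptions and not as tests. All 8 libraries came from E14Tg2a cells, a mouse embryonic stem cell line, at passages 37 to 40. Embryonic stem cells (ESCs) were grown with leukemia inhibitory factor (LIF) to stay pluripotent, and neuronal cells (NCs) were obtained by withdrawing LIF and adding 1 µM retinoic acid (RA) for 48 h. The 3 LIF libraries and the first 3 RA libraries were made with antibodies to FGFR1, RXR (RXRα in the sample titles) and Nur77, and the other RA libraries with antibodies to histone H3.3 and, in a second experiment, to FGFR1 again. FGFR1 in RA therefore had 2 libraries, of which replicate 1 is among the 7 lists and replicate 2 is the list from which the sites are absent. Every other group had 1 library. Cells of several plates were pooled for each precipitation, and no input or control library is named for peak calling.

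FGFR1 is a receptor for fibroblast growth factors, part of which enters the nucleus, RXR and Nur77 are nuclear receptors that bind DNA, and H3.3 is a histone variant placed in chromatin outside of replication. Runs in which purines and pyrimidines alternate, most often CA repeats (TG on the other strand), are among the most common simple repeats of rodent genomes and can adopt the left-handed Z form of DNA, which CG steps favour over TA steps. Simple repeats are also difficult to align, since many short reads from them have more than a single place in the genome.

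Sequences of some of the strongest sites are shown first, because most of the sites share this kind of sequence. They are the plus strand of mm10 (RefSeq, GRCm38.p6), written 5′ to 3′, with 20 bp of flank at each side and the tract in capitals. A site named "near" a gene lies outside all genes, and the gene is the nearest protein-coding one. For the Rgs9 site only the first 160 bp of a 263 bp run are given, with the flank on the left. Other sites among the 10 strongest are not shown, and the near A1cf site is the strongest CAGG site but not among those 10. CAGG and CACAG tracts are a larger part of the sequences shown here than of all the sites. The Cntnap4 and Ldlrad3 runs hold CG steps in the form of TGCG or CACG units, the Slc8a1 and Rgs9 runs open with stretches of CA units, the near Tcp10c site is built of CACAG units read here as CTGTG, and the near A1cf site of CAGG units read as CCTG. These intervals lie at chr8:112854398-112854530 (Cntnap4 intron), chr2:102086699-102086868 (Ldlrad3 intron), chr17:81701222-81701406 (Slc8a1 intron), chr11:109288626-109288805 (Rgs9 intron), chr17:13306127-13306195 (outside genes) and chr19:31825226-31825321 (outside genes).
Cntnap4: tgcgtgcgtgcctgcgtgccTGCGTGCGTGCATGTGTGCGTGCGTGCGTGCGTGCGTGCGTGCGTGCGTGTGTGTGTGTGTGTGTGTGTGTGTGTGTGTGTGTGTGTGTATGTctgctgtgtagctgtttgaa
Ldlrad3: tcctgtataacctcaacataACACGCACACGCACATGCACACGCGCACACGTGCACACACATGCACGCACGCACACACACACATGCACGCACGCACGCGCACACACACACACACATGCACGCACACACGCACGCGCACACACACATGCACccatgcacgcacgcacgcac
Slc8a1: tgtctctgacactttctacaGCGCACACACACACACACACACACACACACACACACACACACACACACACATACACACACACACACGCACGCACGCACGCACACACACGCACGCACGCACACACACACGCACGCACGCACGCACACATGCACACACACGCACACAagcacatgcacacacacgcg
Rgs9: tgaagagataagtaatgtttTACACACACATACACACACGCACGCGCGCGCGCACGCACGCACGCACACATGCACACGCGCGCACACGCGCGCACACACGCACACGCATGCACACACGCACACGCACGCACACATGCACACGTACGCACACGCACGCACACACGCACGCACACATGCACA
near Tcp10c: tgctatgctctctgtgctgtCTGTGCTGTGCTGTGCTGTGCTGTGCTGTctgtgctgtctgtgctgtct
near A1cf: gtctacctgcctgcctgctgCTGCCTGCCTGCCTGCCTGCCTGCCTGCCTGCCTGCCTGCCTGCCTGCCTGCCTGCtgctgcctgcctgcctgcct

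A run of at least 20 bp with perfect alternation of purine and pyrimidine was present in 1167 of the 1374 sites (84.9%, 95% exact Clopper-Pearson interval 82.9 to 86.8). Among the 60689 other distal sites of the 7 lists the share was 35.3%. A CAGG tract of at least 20 bp was present in 92 sites (6.70%), against 0.769% of the other distal sites, and a CACAG tract in 53 (3.86%), against 0.163%. Of these, 4 CAGG and 5 CACAG sites also held an alternating run. By the longest tract, 1164 sites were alternating runs, 87 were CAGG tracts, 49 were CACAG tracts, 17 held another perfect repeat with a unit of 1 to 6 bp, and 57 (4.15%) held none. By this measure the name repeat-like matched the sequence of all but 57 sites. Intervals here and below cover counting error only, and neighbouring sites are not independent.

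Several of the 57 sites without a perfect tract were still repetitive. With 1 break of the alternation allowed, 11 of them reached 20 bp, 18 held a perfect tandem of at least 14 bp and 15 an alternating run of at least 14 bp. The strongest examples, chosen after their values were seen, lie in an intron of Msl2 and in an intron of Grk5, which encodes a G protein-coupled receptor kinase. They are shown on the plus strand, at chr9:101097713-101097833 and chr19:60924686-60924806, with the stretch spanned by the 7 summits in capitals. Both consist of imperfect copies of a short unit.
Msl2: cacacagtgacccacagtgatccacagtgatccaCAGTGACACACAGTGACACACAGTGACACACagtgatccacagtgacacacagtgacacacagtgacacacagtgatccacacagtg
Grk5: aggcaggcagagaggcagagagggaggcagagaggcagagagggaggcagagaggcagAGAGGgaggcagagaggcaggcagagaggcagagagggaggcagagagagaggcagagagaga

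The presence of a run rose with the number of lists that shared a distal site. Among distal sites without a replicate 2 peak, the share with a run was 27.9% of 42534 sites found in 1 list, 69.2% of 2052 sites found in 4 lists, and 82.8% (80.4 to 85.0) of 1072 sites found in 6 lists. The interval of the last group overlaps that of the 1374 sites. CACAG tracts separated these groups more clearly, with 1.49% (0.855 to 2.41) of the sites in 6 lists against 3.86% (2.90 to 5.02) of the sites in all 7, and CAGG tracts likewise with 3.54% (2.52 to 4.83) against 6.70% (5.43 to 8.15). Sites became wider as lists were added, from a median of 92 bp in 1 list to 242.5 bp in all 7, and a wider site has more room for a run.

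The distal sites in all 7 lists that did have a replicate 2 peak were few and differed in sequence. There were 59 of them, which is 4.12% of distal sites in all 7 lists, and 13 (22.0%, 12.3 to 34.7) held a run. At promoters the same split was seen. A run was present in 7 of the 385 promoter sites found in all 8 lists (1.82%, 0.734 to 3.71) and in 77 of the 115 promoter sites found in the 7 lists without replicate 2 (67.0%, 57.6 to 75.4). The intervals do not overlap in either pair. The plot of runs against number of lists shows both series of distal sites.

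**Figure D1:**
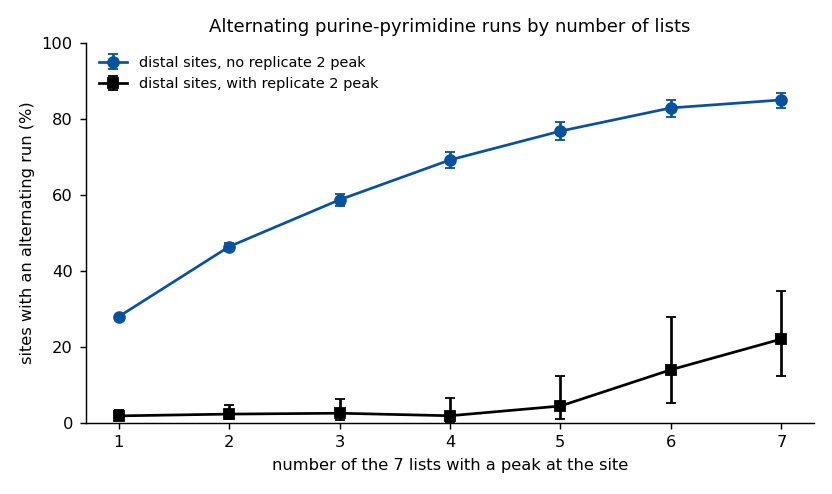
Share of distal merged sites that hold an alternating purine-pyrimidine run of at least 20 bp (y axis, %) by the number of the 7 lists with a peak there (x axis), for sites without (circles) and with (squares) a peak of FGFR1 RA replicate 2. Bars are 95% exact intervals, and the rightmost circle is the 1374 sites at 84.9%, above the rightmost square at 22.0%.

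The edges of the rule were as follows. Of the 1072 distal sites that missed the rule by 1 list, 389 lacked the FGFR1 peak in LIF and 305 the H3.3 peak, the 2 shortest lists of the 7, while 25 lacked the Nur77 peak in RA. Towards promoters, 2 of the 1374 sites touched a promoter window, with 17 bp at Npr2 and 9 bp near Hpdl, and the site left out with the least overlap had 21 bp in a window. The site in Muc3 lay 1 bp from a window. Towards replicate 2, 4 sites lay within 1000 bp of any of its peaks and 0 within 100 bp. The nearest was in a coding exon of Fam170b at 267 bp, followed by the sites near Hpdl at 731 bp and near Bri3bp at 824 bp. In contrast, the 59 distal sites left out for a replicate 2 peak overlapped it by at least 89 bp (median 211 bp). The median distance of the 1374 sites to a replicate 2 peak was 73924 bp.

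The alternating runs in these sites were long and poor in TA steps. The longest run of a site had a median of 83 bp (21 to 869 bp). A step is a pair of neighbouring bases, and of the 121535 steps in these runs 79.0% were CA, AC, TG or GT, 17.2% were CG or GC, and 3.79% were TA or AT. In the 17988 runs of at least 80 bp in mm10 outside promoter windows the corresponding shares were 58.4%, 3.46% and 38.1%. These are the long runs among 559183 of at least 20 bp. The comparison is not matched in length, because the longest runs of the sites also include runs under 80 bp. Only CA-type steps occurred in 71 of the 1167 longest runs, 240 also held CG or GC steps but no TA or AT, 57 held TA or AT but no CG or GC, and 799 held both.

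The genome was then read in the opposite direction, from every run to the sites. Of 559183 alternating runs of mm10 outside promoter windows, 3187 (0.57%) lay in 1 of the 1374 sites, where a site often held several runs. The share was 0.478% of runs of 20 to 29 bp and rose to 15.4% of the 772 runs of 200 bp or more. Of the 4201 runs of at least 120 bp it was 8.26%. Each of the 7 libraries had a peak at 10.6% (H3.3) to 13.6% (Nur77 in RA) of these 4201 runs. Replicate 2 had a peak at 0 of 4201 (upper bound of the exact interval 0.0878%). The replicate 2 count covers all such runs and not the selected sites alone. It includes the 347 runs that lay in the described sites, where the rule asked for no replicate 2 peak. The bound and the shares of the 7 libraries are thus set in part by the rule.

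Length alone did not describe which runs were bound. Of the runs with CG or GC steps and no TA or AT steps, 83 of 356 between 80 and 119 bp (23.3%) lay in the described sites, 31 of 49 between 120 and 199 bp (63.3%), and 19 of 22 of 200 bp or more (86.4%). Of the runs with TA or AT steps and no CG or GC steps, it was 6 of 6415, 0 of 1539 and 1 of 275 in the same classes. Runs without any CA-type step lay in none of the sites (0 of 8821, which allows a share of up to 0.034%, taken as 3 over the number of runs). Long runs of CA steps alone are rare in mm10, with 57 of 80 bp or more, and 0 of these lay in a site.

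The share of CG steps was graded. Among the 8302 runs of at least 80 bp without a CG or GC step, 7 lay in the described sites (0.0843%, 0.0339 to 0.174). The share was 0.378% (0.240 to 0.567) where such steps made up to 5% of the run, 6.35% (5.15 to 7.72) between 5 and 10%, 24.0% (21.7 to 26.4) between 10 and 20%, and 33.0% (29.7 to 36.4) above 20%. The median run length was 91 to 99 bp over these classes. In the last class a peak was present at 40.8% of the runs for FGFR1 in LIF, 48.1% for RXR in LIF, 49.7% for Nur77 in LIF, 58.7% for FGFR1 in RA replicate 1, 57.5% for RXR in RA, 59.8% for Nur77 in RA and 52.0% for H3.3. Without CG or GC steps the same 7 libraries had a peak at 0.0964% (H3.3) to 0.771% (FGFR1 in LIF) of the runs. Replicate 2 had a peak at 0.382% of the runs of the last class. Of the 786 runs of that class, 259 lay in the described sites. The rule chose these sites for a peak in each of the 7 lists and none in replicate 2. Part of the peak shares of all 8 libraries is thus set by the rule. TA steps went with lower shares at a given CG share: between 10 and 20% CG or GC, 53 of 144 runs without TA or AT steps lay in a site (36.8%, 28.9 to 45.2), against 0 of 93 runs with over 20% TA or AT steps (upper bound of the interval 3.89%).

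**Figure D2:**
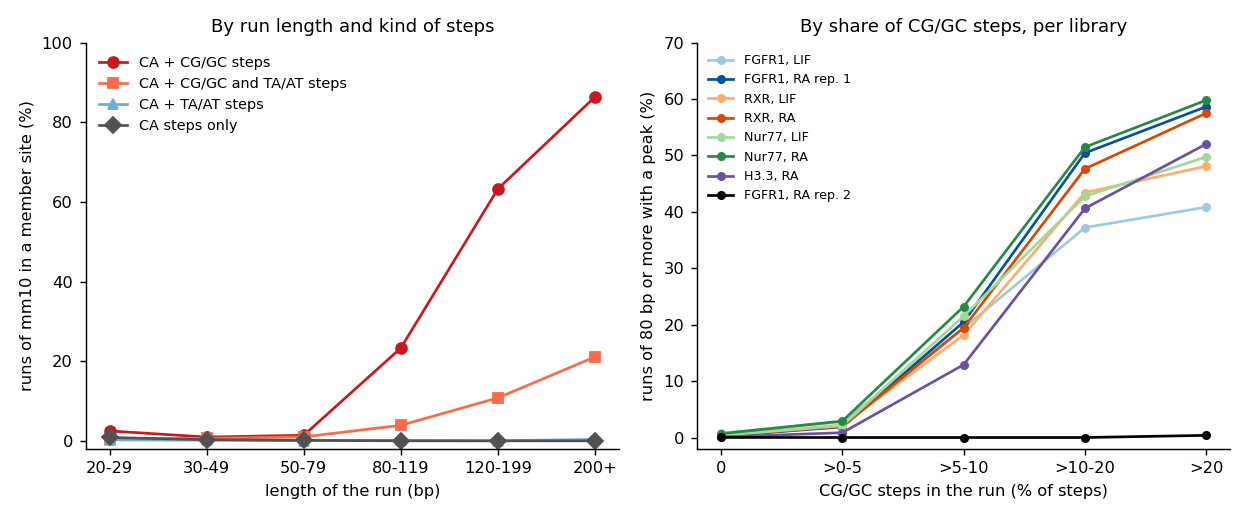
Left, share of alternating runs of mm10 outside promoter windows that lie in 1 of the 1374 sites (y axis, %) by run length in bp (x axis) and by the steps the run holds, reaching 86.4% for runs of 200 bp or more with CG/GC and no TA/AT steps. Right, share of runs of at least 80 bp with a peak in each library (y axis, %) by the share of CG/GC steps (x axis, %), rising to between 40.8% and 59.8% in the 7 libraries and staying at or below 0.382% in FGFR1 RA replicate 2. Runs in the 1374 sites are included, so the rule sets part of these shares.

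Repeat families were then compared. Tandem tracts of at least 20 bp were counted in mm10 by their unit, both strands and all phases together. Among units with at least 5 tracts in the described sites, the CACAG family had the highest share there, with 292 of 904 tracts (32.3%). The CAGG family had 335 of 2264 (14.8%). The CA-type units with CG steps were also high, at 21 of 73 for ACGCGC (28.8%), 236 of 1188 for ACGC (19.9%) and 261 of 1465 for ACACGC (17.8%). Tracts of CG units alone were lower, at 5 of 424 (1.18%). Plain CA tracts were far more numerous and rarely in a site (2162 of 265847, 0.813%), and GA tracts almost never (27 of 118735, 0.0227%). Other common tracts were also almost never in a site, with 1 of 65726 for A, 0 of 45801 for AAAC and 1 of 40874 for AAAG. Tracts of 1 site share that site, so these shares describe tracts and not independent binding events.

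The strand of the run was balanced along the chromosomes. CA was written on the plus strand in 587 of 1167 sites (50.3%, 47.4 to 53.2) and TG in the others. In the 589 sites with a run and with host genes of a single strand, CA was on the sense strand, the strand that matches the RNA, in 253 (43.0%, 38.9 to 47.1). Among all mm10 runs in genes this share was 45.9% for runs of at least 20 bp and 48.4% (47.3 to 49.5) for runs of at least 80 bp. The share in the sites was therefore below that of the long runs by their intervals, and its interval holds the value of all runs. Host strand was read from genes at the whole site, and for mm10 from genes at the run itself. What this adds to the difference was not tested. For CAGG tracts, 27 of 48 in genes were read as CAGG on the sense strand, and for CACAG tracts 14 of 34, with intervals of 41.2 to 70.5% and 24.6 to 59.3%.

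The sites lay more often in gene bodies, and less often in intergenic DNA, than the runs of mm10. By class, 168 (12.2%) were distal promoter, from 5000 to 1000 bp upstream of a start, 625 (45.5%, 42.8 to 48.2) were gene body and 581 (42.3%, 39.7 to 44.9) intergenic. All mm10 runs outside promoter windows divided into 10.4%, 41.5% and 48.2%, and those of at least 80 bp into 8.91%, 40.4% and 50.7%. The intervals of the sites for gene body and intergenic hold neither background value. Sites were placed by their whole width and runs by a shorter window at their midpoint, which gives a site more room to reach a gene. The mm10 runs of at least 80 bp are also richer in TA steps than the runs of the sites. What either adds to the contrast was not tested. By gene part, 689 sites were intronic, 16 overlapped a coding exon, 9 an untranslated exon and 10 an exon of a noncoding transcript, and 650 lay outside genes. The median distance to a promoter window was 13956 bp.

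The few sites that overlapped coding exons, looked at after their values were seen, were of mixed sequence. Of these 16 sites, 6 held no tract (37.5%, 15.2 to 64.6), compared with 57 of all 1374. These 6 were at Scrt2, Sod3, Chst13, Chst5, Tenm3 and Art1, the last of which overlaps Chrna10. Their median percentiles over the 7 libraries were 16.2 to 74.8, against 62.5 to 96.4 for the other 10. Among the others, Rcor1, which encodes a REST corepressor, held a run of 60 bp, Strn a run of 119 bp and Thumpd2 a CAGG tract of 64 bp. Sod3, which encodes the extracellular superoxide dismutase, had the lowest median percentile of the coding-exon sites.

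The sites ranked high among the distal peaks of each library. Strength is given as the deposited −log10 p of the strongest peak in the site, with the fold at the summit and the whole number of fragments there as recovered from both values. These values come from the calls that selected the sites. In LIF the median −log10 p was 24.1 for FGFR1 (6.23 to 195.1), 26.7 for RXR (6.13 to 153.1) and 23.8 for Nur77 (5.34 to 199.9). In RA it was 26.5 for FGFR1 replicate 1 (6.59 to 134.1), 26.5 for RXR (5.93 to 171.8), 30.1 for Nur77 (6.26 to 166.3) and 18.99 for H3.3 (6.30 to 117.6). The other distal peaks of the same lists had medians of 10.4 to 11.8. The median fold was 10.9 for H3.3 and 12.1 to 14.6 in the other 6 libraries, on a median of 14 and 20 to 24 fragments. The sites made up 5.10% (FGFR1 RA replicate 1) to 19.9% (H3.3) of the distal peaks, and yet 79 to 97 of the 100 strongest distal peaks of each list. Of the 1000 strongest they made up 573 to 663. The strength plot shows the spread in each library.

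**Figure D3:**
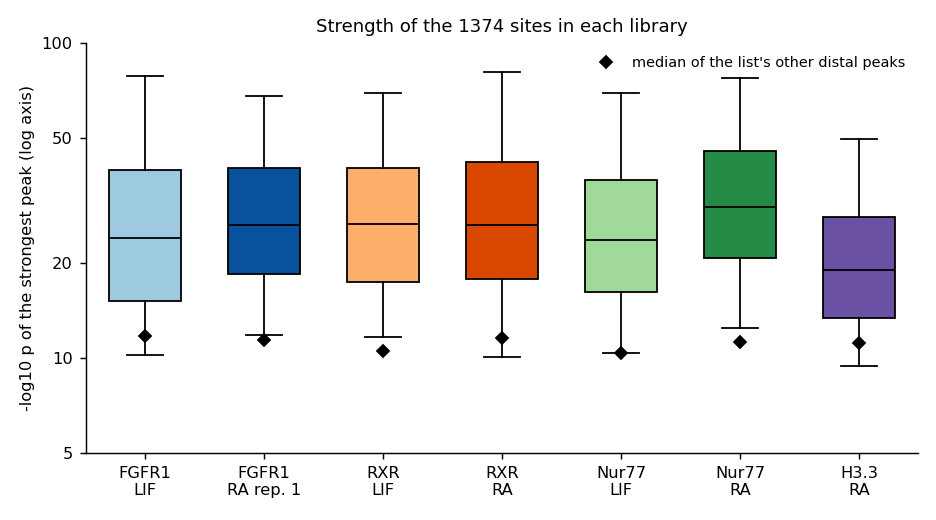
−log10 p of the strongest peak in each of the 1374 sites, per library, on a log axis. Boxes are quartiles with the median as a line, whiskers run from the 5th to the 95th percentile, and diamonds mark the median of the other distal peaks of the same list, at 10.4 to 11.8, below the lower quartile of every box.

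Depth differed between these libraries. The background recovered from the same values was 1.27 (H3.3) to 7.09 (RXR in LIF) fragments per kb in the 7 libraries, and 6.78 in replicate 2. The width of the narrowest peak in each list stood in for its fragment length in these values. At that background a peak needed at least 4 to 6 fragments in the 7 libraries and 8 in replicate 2. The median of 14 to 24 fragments at the described sites was thus above these limits in the 7 libraries, and it corresponded to 42.3 (RXR in LIF) to 96.8 (RXR in RA) times the genome background. Since depth is not given in the lists and is inferred here, the number of fragments that replicate 2 had at these sites is unknown. Fragment length is not given either, and the narrowest peak was 153 bp in replicate 2 and 72 to 120 bp in the others. The part that depth or fragment length played in the missing peaks of replicate 2 was not tested.

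The strength of the sites went together across libraries. Over the 1374 sites, Spearman's rank correlation of the fold between 2 libraries ranged from 0.376 to 0.666 over the 21 pairs (median 0.541). Over the 385 promoter sites in all 8 lists it ranged from 0.120 to 0.397 (median 0.230). Sites share sequence composition and local background in all libraries, so these values are a description across sites. The 7 summits of a site also lay close together, with a median span of 51 bp, and within 50 bp in 682 sites (49.6%) and 100 bp in 1015 (73.9%). In the sites with an alternating run, 67.0 to 68.9% of the summits of each library fell inside the longest run and 85.0 to 86.2% inside any run. Of all summits in these sites, 17.4 to 18.9% lay beyond the 3′ end of the CA strand of the longest run and 13.6 to 15.2% beyond its 5′ end, and the former was larger in each library. The libraries share these sites and their summits lie close together, so the 7 libraries are not separate observations of this difference.

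The longest runs had stronger peaks than the shortest. Spearman's rank correlation between the length of the longest run and the fold was 0.233 (RXR in LIF) to 0.436 (RXR in RA) over the 1167 sites with a run. In RXR from RA the median fold was 10.3 in the 38 sites with runs of 20 to 29 bp, 12.7 in the 305 sites of 50 to 79 bp and 18.9 in the 107 sites of 200 bp or more. In RXR from LIF the corresponding medians were 11.4, 11.7 and 16.0, and in H3.3 8.19, 10.9 and 14.6. The medians did not rise at every step. In FGFR1 from LIF they were 12.7 at 20 to 29 bp, 11.4 at 30 to 49 bp and 11.0 at 50 to 79 bp before 17.9 at 200 bp or more. From 30 to 49 bp to 50 to 79 bp they were also lower in RXR from LIF (12.1 and 11.7) and Nur77 from LIF (10.7 and 10.5). In FGFR1 from RA replicate 1 the median was 16.4 at 120 to 199 bp and 15.3 at 200 bp or more.

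**Figure D4:**
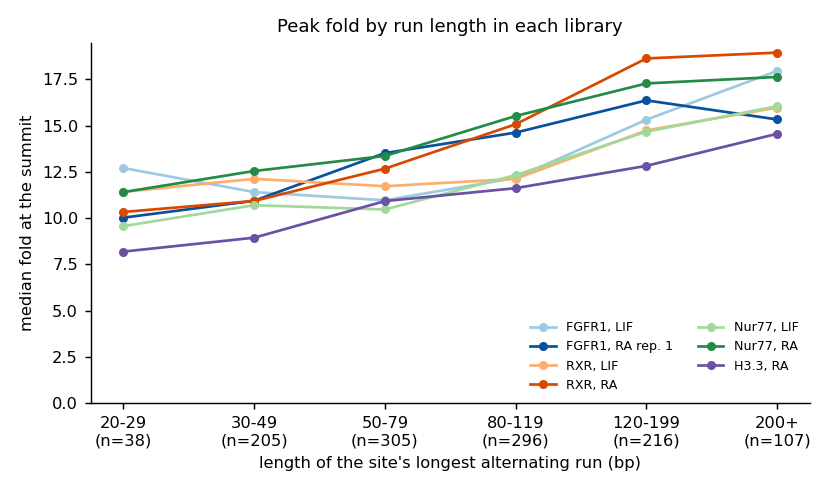
Median fold at the summit (y axis) by the length of the longest alternating run of the site in bp (x axis, with the number of sites), a line for each of the 7 libraries. Medians in the longest class, from 14.6 for H3.3 to 18.9 for RXR in RA, exceed those in the shortest class in every library.

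Grouped by their longest tract, the CAGG sites had the highest median fold in each library. In the 87 CAGG sites the median fold was 14.1 for FGFR1 in LIF, 14.6 for RXR in LIF, 14.3 for Nur77 in LIF, 16.9 for FGFR1 in RA replicate 1, 16.0 for RXR in RA, 17.7 for Nur77 in RA and 12.4 for H3.3. Each of these exceeds the median of the alternating-run sites in the same library, which was 11.0 for H3.3 and 12.1 to 14.7 elsewhere. Sites with runs of 200 bp or more, taken alone, had higher medians than the CAGG sites in every library but FGFR1 replicate 1 and Nur77 in RA. In the 49 CACAG sites the median fold was 8.53 for H3.3 and 11.8 to 12.9 in the other libraries, although the fragments at the summit (25 to 33 in those 6 libraries) outnumbered those of the alternating-run sites (20 to 24). For H3.3 the median percentile of the CACAG sites among its distal peaks was 66.7, against 82.9 for the alternating-run sites. In the 57 sites without a tract the median fold was 7.81 for H3.3 and 8.77 to 11.6 in the other libraries.

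The 10 sites with the highest median percentile over the 7 libraries were found in Cntnap4, Ldlrad3, near Tcp10c, in the Pcdhb22 exon, in Rassf3, in Bud13, near Otoa, in Slc8a1, near Chst1 and in Rgs9. All but the near Tcp10c site were alternating runs of 75 to 386 bp with both CG and TA steps. Ldlrad3, a receptor of the low-density lipoprotein receptor family, had in LIF a fold of 41.7 (FGFR1), 35.4 (RXR) and 30.9 (Nur77). In RA the fold was 33.1 (FGFR1 replicate 1), 40.9 (RXR), 35.0 (Nur77) and 29.2 (H3.3). All 7 values rested on 54 to 123 fragments. At Slc8a1, which encodes the cardiac sodium-calcium exchanger, the fold in LIF was 28.9 (FGFR1), 22.9 (RXR) and 42.7 (Nur77), and in RA 32.3 (FGFR1 replicate 1), 39.3 (RXR), 34.7 (Nur77) and 28.1 (H3.3). RXR was the lowest there in LIF and the highest in RA. At Rassf3 the order was different, with 33.9, 29.1 and 26.6 in LIF and 20.8, 30.1, 31.7 and 18.6 in RA, so that FGFR1 was highest in LIF and, with H3.3, lowest in RA. At Rgs9, a regulator of G protein signaling, the 6 libraries other than H3.3 lay between 30.1 and 34.1 and H3.3 at 19.8. The Cntnap4 site had the highest fold of all the sites in every library but RXR in RA, from 38.4 in H3.3 to 49.3 in Nur77 from LIF. For RXR in RA its fold was 30.7, and the highest of all the sites was 40.9. Each of these is 1 library, so differences between them carry no replicate error.

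The weakest sites were those with the lowest single −log10 p. Gm36431 had 5.34 for Nur77 in LIF but 24.0 for FGFR1 in LIF. The site near Cyb5b, without a tract, had 5.93 for RXR in RA and 34.8 for Nur77 in RA. FGFR1 in LIF was also low there, at 7.35 on 8 fragments. The site near Glt6d1, a CAGG tract of 59 bp, had 6.13 for RXR in LIF and 28.0 for RXR in RA.

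The same sites were described in LIF and in RA. For FGFR1 the fold was higher in RA replicate 1 than in LIF at 806 of 1374 sites (58.7%), with a median log2 difference of 0.11. For RXR it was higher in RA at 795 sites (57.9%), with a median of 0.14, and for Nur77 at 947 (68.9%), with a median of 0.20. The clouds in the plot of fold in LIF against fold in RA lie along the diagonal for all 3 factors. At the 385 promoter sites in all 8 lists the medians were 0.60 for FGFR1, −0.09 for RXR and 0.13 for Nur77. When fragments at the summit were instead divided by the library's own genome background, the medians at the described sites became 0.04 for FGFR1, 1.23 for RXR and 0.51 for Nur77, and the sites higher in RA 740 (53.9%), 1310 (95.3%) and 1146 (83.4%). With the fragments at the summit taken as they are, the median log2 difference was 0 for FGFR1, −0.16 for RXR and 0.21 for Nur77. The RXR background in RA was 0.382 of that in LIF. The size of the difference thus depended on the measure for RXR and Nur77, and for RXR its direction did too. With 1 library in each state, LIF and RA could not be tested against each other, and a change of binding cannot be told apart from a change between libraries.

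**Figure D5:**
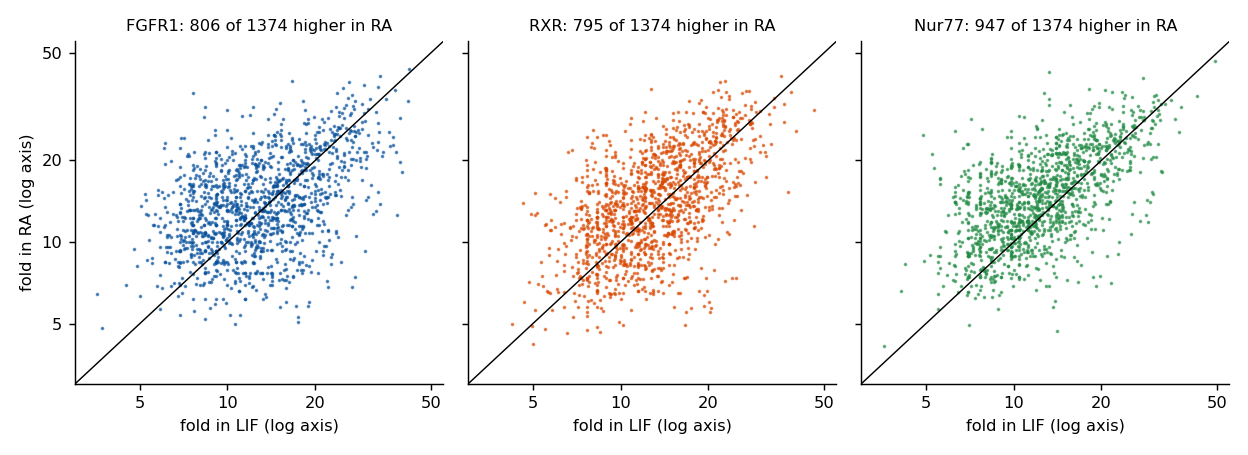
Fold at the summit in LIF (x axis) against RA (y axis), both on log axes, for FGFR1 (RA replicate 1), RXR and Nur77; each point is 1 of the 1374 sites and the line marks equal fold. Points lie on both sides of the line, with 806, 795 and 947 of them above it.

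Host genes were those whose body holds a site. There were 697, of which 594 were protein-coding, which is 2.7% of the 21992 protein-coding genes in the annotation. They were long, with a median of 126941 bp against 17318 bp for all protein-coding genes, and a long gene has more room for a site. At least 2 sites were found in 58 genes and at least 3 in 11.

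The genes with 3 or more sites differed in the sequence of those sites. Rbms3, an RNA-binding protein, held 5 intronic sites, 4 with runs of 42 to 99 bp and 1 CAGG tract, whose median fold over the 7 libraries was the highest of them. Grip1, a scaffold that binds AMPA-type glutamate receptors, held 4 sites with runs of 64 to 237 bp, and the site with the 237 bp run had a fold of 23.8 to 38.5. Sox5, a SoxD transcription factor, held 3 sites with runs of 72, 91 and 90 bp at a fold of 10.3 to 23.4. Ptpn14, a protein tyrosine phosphatase, held 3 with runs of 60 to 172 bp, all with TG on the plus strand. Nckap5 held 3 run sites, and Hydin and Msrb3 2 run sites each beside 1 CACAG and 1 CAGG tract. Gm20388 is a predicted gene of 4434882 bp that contains other genes, Usp10 and Zcchc14 among them. Sfi1, a centrosomal protein, held 4 sites, 3 of them without a tract at a fold of 3.57 to 7.52.

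A cluster of CACAG sites stood out on chromosome 17. The overlapping noncoding genes 2700054A10Rik and AC174800.1 shared 6 CACAG sites between positions 13550665 and 13553216. The fold was 4.48 to 13.5 over these 6 sites and 7 libraries, while the strongest of them had 108 fragments for FGFR1 in LIF and 64 for H3.3 at its summit. The near Tcp10c site, the strongest CACAG site, lies at 13305904 to 13306291 on the same chromosome and reached a fold of 25.7 to 33.7. Smo, the transducer of Hedgehog signals, also held 2 neighbouring CACAG sites in an intron, at a fold of 9.57 to 18.4. In all, 13 pairs of neighbouring sites lay within 1000 bp of each other.

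The genes with 2 sites, 47 in all, were of many kinds, and are ordered here by hand after they were found. Among adhesion molecules, receptors and synaptic proteins they were Cntnap2, Tenm3, Sdk1, Robo1, Ptprg, Grm5, Shank2, Dlgap2 and Tmem108. Transcription factors and coregulators were Zfhx3, Mecom, Prdm16, Jmjd1c and the nuclear receptor coactivator Ncoa1. Signaling genes were Smo, Fgfr2, Pde4d, Prkce, Vav3, Elmo1, Dock9, Farp1, Skap1, Ulk4 and Ppp1r12b. RNA-binding proteins were Stau2 and Snd1, and Atp8a2 is a phospholipid flippase. Others were Acbd6, Ak5, Bcas3, Bri3, Caln1, Chst11, Col26a1, Efcab6, Ldlrad3, Mvb12b, Thada, Ttc17, Zdhhc14, the noncoding gene Pvt1, and the predicted genes or pseudogenes Gm11735, Gm37240, Gm7073 and Gm8091. Ncoa1 held a CAGG site with a fold of 15.1 to 23.4 and a run site with 8.84 to 15.9. The 2 Mecom sites had 8.77 to 21.8 and 9.93 to 30.7.

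Genes of the pathways that the antibodies address were looked up among the hosts, beside the 2.7% of all protein-coding genes. In the FGF family 1 of 29 genes (3.45%) was a host, Fgfr2, with 2 sites. These sites lie within a single annotated transcript of 2960900 bp, and are 142622 and 1250953 bp away from the span of the other 26 Fgfr2 transcripts. Among 20 retinoid genes Aldh1a2, which makes retinoic acid, was the only host (5%). Its site held a run of 146 bp and had in LIF a fold of 18.1 (FGFR1), 15.3 (RXR) and 10.9 (Nur77), and in RA of 14.4 (FGFR1 replicate 1), 20.5 (RXR), 24.1 (Nur77) and 16.6 (H3.3). RXR and Nur77 were higher there in RA than in LIF, and FGFR1 lower. None of the 3 Nr4a genes, which encode Nur77 and its relatives, and none of 15 genes of the pluripotency core was a host, and at the share of all genes lists of this size would hold few or none.

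The neuronal gene lists gave different pictures by gene and by site. Hosts were 7.97% of the genes for cell adhesion and synapse organisation, 6.17% of the transmitter receptor genes, 2.9% of the axon guidance genes and 2.42% of the ion channel genes, beside 2.7% of all protein-coding genes. By site, each list held a smaller share of the sites than of the runs of mm10 of at least 80 bp, which are richer in TA steps than the runs of the sites. Of 639 sites in protein-coding genes, 13 (2.03%) lay in 11 of 138 genes for cell adhesion and synapse organisation, while 5.93% of the mm10 runs of at least 80 bp in protein-coding genes lay there, and the list takes up 4.19% of the length of these genes. The hosts were Cdh18, Cntnap2, Cntnap4, Csmd3, Ctnnd2, Lrrtm4, Pcdh15, Pcdh7, Pcdhb22, Tenm2 and Tenm3. Ion channel genes held 4 sites (0.626%, against 2.58% of the runs), in Cacna1b, Cacna2d2, Kcnk2 and Kcnmb4. Transmitter receptor genes held 6 (0.939%, against 1.69%), in Chrna10, Grik1, Grin2a, Grm5 and Grm8. Axon guidance genes held 3 (0.469%, against 1.62%), in Ephb1 and Robo1. These are counts beside backgrounds, and no test was made of them. At Robo1, the Slit receptor, the stronger of its 2 sites had in LIF a fold of 32.6 (FGFR1), 14.8 (RXR) and 17.2 (Nur77), and in RA of 21.8 (FGFR1 replicate 1), 22.4 (RXR), 14.9 (Nur77) and 15.8 (H3.3). FGFR1 in LIF was the highest of the 7.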

How the data were processed

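ChIP-seq peak lists of 8 libraries were used. The authors aligned reads to mm10 with Bowtie 1.0, discarded reads that fit more than 1 position, which thins coverage over repeats, and called peaks per library with MACS2 without a named control. How both steps bear on repeats was not tested. In the deposited lists the ratio is MACS2's fold at the summit, −log10 p and −log10 q are the authors' values there, and the deposited score restates −log10 p and was not used. Groups were read from the sample titles.

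Peaks were merged, placed on GENCODE M21 and read against the RefSeq GRCm38.p6 sequence in Python 3.11.15 (numpy 2.4.6, pandas 2.3.3, scipy 1.17.1, matplotlib 3.10.9). Alternating runs and tandem tracts (unit of 1 to 6 bp) had at least 20 bp. Their lengths and steps are those of mm10, and the sequence of the cells used was not read. Whole fragments were solved from fold and −log10 p with a tolerance of 0.002 for 100% of peaks. The functions were tested on simulated data. Named sites were the 10 strongest by median percentile, hosts of 2 or more sites, the 3 at each edge of the rule, and hosts in the gene lists, and 1 host is not reported here. Members and lists were chosen with earlier results of these data known. Without replicated groups no p-value was computed. The authors describe the second FGFR1 library in RA as an additional experiment. Beyond that, nothing shows that libraries came from separate cultures.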

Additional observations from a re-analysis of the deposited data

How the results depend on the processing

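The results were recomputed under 76 combinations of result and setting, of which 69 stayed within 1.5 times the count or within the interval of the value as reported. The number of sites ranged from 1015, with the 7 strongest summits within 100 bp of each other, to 1435, with starts of protein-coding transcripts only. The share with an alternating run moved to 87.5% with summits within 100 bp and to 82.2% with runs of at least 30 bp. Leaving out a replicate of FGFR1 in RA gave 82.3 to 85.3%, the lower value without replicate 2, whose absence was then not asked. The share in gene bodies moved to 51.8% when promoters reached 5000 bp upstream, since 168 distal promoter sites were then removed. The median percentile over the libraries, 90.7, moved to 88.9 with a −log10 p of at least 10 and to 88.5 with equal numbers of peaks per list. Leaving out a replicate gave 89.1 to 90.8, with 1409 and 1433 sites and 45.2 to 45.6% in gene bodies. The strand shares stayed between 50.1 and 50.3% (plus) and 42.8 and 43.1% (sense). A −log10 q of at least 2 and restriction to chromosomes 1 to 19, X and Y changed nothing. No paired analysis was possible because the groups compared share fewer than 2 replicate numbers and no result comes from a test. Depth is inferred, and peaks just under the limit of a shallow library count here as absent.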

Other observations

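The sex chromosomes held few of the sites. Chromosome X had 14, which is 0.0856 per Mb of sequenced bases, and chromosome Y had 4 (0.0454 per Mb), while the autosomes ranged from 0.430 (chromosome 7) to 0.829 (chromosome 17). Chromosome X was less different in runs of at least 80 bp, with 5.08 per Mb against 5.46 to 8.94 on the autosomes. Of its 830 such runs, 9 lay in a site (1.08%, 0.497 to 2.05), against 696 of 16785 on the autosomes (4.15%, 3.85 to 4.46). Among runs with over 10% CG or GC steps the shares were 6 of 47 on chromosome X (12.8%, 4.83 to 25.7) and 576 of 2087 on the autosomes (27.6%, 25.7 to 29.6), and each of the 7 libraries had a peak at 19.1 to 29.8% of them on chromosome X and at 38.9 to 55.1% on the autosomes. Chromosome Y had 2 of its 373 runs of at least 80 bp in a site (0.536%, 0.065 to 1.92), and among the 6 with over 10% CG or GC steps there were 2 (33.3%, 4.33 to 77.7), so there its share was not below that of the autosomes, on few runs. The peak shares of the 7 libraries on chromosome X and the autosomes include runs in the described sites, so the rule sets part of them. The number of copies of each chromosome in the cells was not measured, and its part in these shares was not tested. The pattern was found in these data and not looked for in others.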
